A study of Mus musculus with 20 samples.

Results

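The data follow 37 genes of base and nucleotide excision repair through 20 RNA-seq libraries of Hepa-1, a mouse hepatoma line that responds to ligands of the aryl hydrocarbon receptor (AHR). The genes are the rows of the count table whose Entrez gene IDs carry the symbols of a textbook list, 21 for nucleotide excision and 16 for base excision, out of 23373 gene IDs. All 37 had enough counts to be tested, among 14343 genes. The libraries form 10 groups of 2. Recovered cells had 20 passages with hexavalent chromium, Cr(VI), and then 5 without it. Cr(VI)-grown and control-grown cells were taken at passage 25, as were the recovered cells, and again at passage 20. Each of these 5 growth histories was treated for 8 hours with benzo[a]pyrene (B[a]P) or with its solvent DMSO, and all cells were kept with 5% serum. As labelled, the Cr(VI) concentration was 0.5 mM and that of B[a]P 5 mM, although the series speaks of low concentrations. All results come from this 1 tumour line, and in bulk RNA fewer expressing cells and less RNA per cell cannot be told apart.

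Nucleotide excision repair removes bulky lesions such as the adducts that B[a]P metabolites form on guanine: XPC or the DDB complex finds the distortion, the TFIIH complex unwinds the DNA, XPA checks the lesion and a pair of nucleases cuts the strand on either side. Base excision repair removes small changes such as oxidised bases and uracil: a glycosylase cuts out the base, APE1 opens the strand, DNA polymerase beta fills the gap, and XRCC1 with ligase III seals it. PARP1 and PARP2 bind the strand breaks made on the way.

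Promoter sequences are shown for Ercc5, Xpa and Ung, members whose levels under B[a]P are described further on. They are RefSeq windows of GRCm38.p6, from 250 bases before to 50 after an annotated transcript start, written 5′ to 3′ on the strand of the gene, and capitals mark GCGTG, the core bound by AHR with its partner ARNT. The Ercc5 window is chr1:44147494-44147793 on the plus strand, the Xpa window chr4:46196262-46196561 on the minus strand and the Ung window chr5:114130185-114130484 on the plus strand.
Ercc5: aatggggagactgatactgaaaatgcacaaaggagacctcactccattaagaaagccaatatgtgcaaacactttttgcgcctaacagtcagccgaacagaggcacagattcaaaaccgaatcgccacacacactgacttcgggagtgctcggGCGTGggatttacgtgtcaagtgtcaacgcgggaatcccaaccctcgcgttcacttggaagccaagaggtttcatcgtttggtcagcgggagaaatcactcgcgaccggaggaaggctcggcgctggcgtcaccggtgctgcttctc
Xpa: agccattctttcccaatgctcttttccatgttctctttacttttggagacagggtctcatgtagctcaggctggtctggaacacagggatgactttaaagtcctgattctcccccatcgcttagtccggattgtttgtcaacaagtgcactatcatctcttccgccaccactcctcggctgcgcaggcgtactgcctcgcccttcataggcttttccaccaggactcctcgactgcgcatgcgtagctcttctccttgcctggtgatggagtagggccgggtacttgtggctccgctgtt
Ung: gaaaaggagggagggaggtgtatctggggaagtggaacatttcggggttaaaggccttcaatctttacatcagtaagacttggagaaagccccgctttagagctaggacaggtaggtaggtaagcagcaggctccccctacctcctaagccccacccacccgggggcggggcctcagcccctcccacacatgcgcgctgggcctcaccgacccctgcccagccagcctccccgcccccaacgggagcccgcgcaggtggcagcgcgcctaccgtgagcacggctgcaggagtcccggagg
The Ercc5 window holds 1 GCGTG core and the other two windows none. Over the list, 31 members had 33 windows, and 20 of these (60.6%) held GCGTG on either strand, against 32.4% of the 32851 windows of all genes. The E2F words TTTCCCGC, TTTCGCGC, TTTGCCGC and TTTGGCGC, searched on both strands and counted apart from GCGTG, were found in 1 of 33 windows, that of Nthl1 (3.03%, against 2.26% of all windows). A full p53 response element was found in 0 of 33 windows, against 0.0731% of all windows. At so low a share, 0 of 33 says little about the members. Xpc, Ddb2, Ccnh, Ercc3, Neil2 and Polb had no window, so none of these counts covers them. The base composition of the windows was not matched in these shares.

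Totals were 27012268 to 37930720 counts in the 6 replicate 1 libraries of passage 25, 21795837 to 33070524 in the 6 replicate 2 libraries of passage 25 and 20976045 to 33113295 in the 8 libraries of passage 20. The replicate 2 libraries of passage 25 stood apart: 14776 to 15329 genes had a count in them, against 16049 to 17173 in their replicate 1 partners. Their TMM factors, which scale the library sizes, were 0.6604 to 0.8025, against 1.018 to 1.385 in replicate 1 and 0.9686 to 1.212 at passage 20. Levels compared between these sets therefore depend on this scaling. Passage 25 and passage 20 also carry different series of library names, so passage and library set cannot be told apart. Cyp1a1, the standard target of AHR, lay at 930 to 2090 CPM (counts scaled to library sizes adjusted by the TMM method) in the 10 B[a]P libraries, against 25.1 to 62.4 CPM in the 10 DMSO libraries. Of 8 hepatoma markers 4 had a median of at least 1 CPM (Alb, Afp, Trf and Foxa2), while Apoa1, Ttr, Hnf4a and Serpina1a were lower. The 6 fibroblast markers summed to 398 to 1530 CPM, the 5 macrophage markers to 23.0 to 63.5 CPM and the 4 endothelial markers to 0.0854 to 1.37 CPM in single libraries. Of the 16 markers with enough counts to be tested, Cd68, a macrophage gene, rose under B[a]P (0.995, adjusted p 0.000472), where the macrophage sum was 28.5 to 63.5 CPM under B[a]P and 23.0 to 55.7 CPM under DMSO, and the other markers did not pass. None passed between Cr(VI)-grown and control-grown cells under DMSO. Between the passages 3 rose and 5 fell, as given with that comparison. The part of these markers in the results was not tested.

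Levels per kilobase of exon, as medians over the 20 libraries, set the members in order. Ddb1, the larger subunit of the DDB damage sensor and of a ubiquitin ligase, was highest at 117.9 CPM per kb. Apex1, the endonuclease that cuts at a lost base, followed at 66.6, Rad23b, the partner of XPC, at 45.9, the small TFIIH subunit gene Gtf2h5 at 29.3 and Parp1 at 26.2 CPM per kb. At the other end stood Ung at 2.08, Xpc at 1.74, Mutyh at 1.43, Neil3 at 1.39, Neil1 at 0.954 and Ercc6 at 0.572 CPM per kb. Neil2 was lowest at 0.0360 CPM per kb, with a single read in its poorest library, and its fold changes carry little weight. The libraries of one gene spread widely beside these steps (Ddb1 100.5 to 410.0, Ung 0.886 to 3.89 and Xpc 1.03 to 3.30 CPM per kb), so the ranges of neighbours in the order overlap for every pair except Ercc6 and Neil2.

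B[a]P was compared with DMSO over the 5 growth histories, 10 libraries against 10. Ung fell, and Xpc and Ercc5 rose, while 34 of the 37 members did not pass the test. The 3 called members are 8.11% of the list, and 7.59% of all genes tested were called, so the share is near the background. The median log2 fold change was -0.03 over the nucleotide excision genes, -0.04 over the base excision genes and -0.00 over all genes. Of the estimates, 9 were above 0 and 12 below for nucleotide excision, and 8 above and 8 below for base excision.

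**Figure D1:**
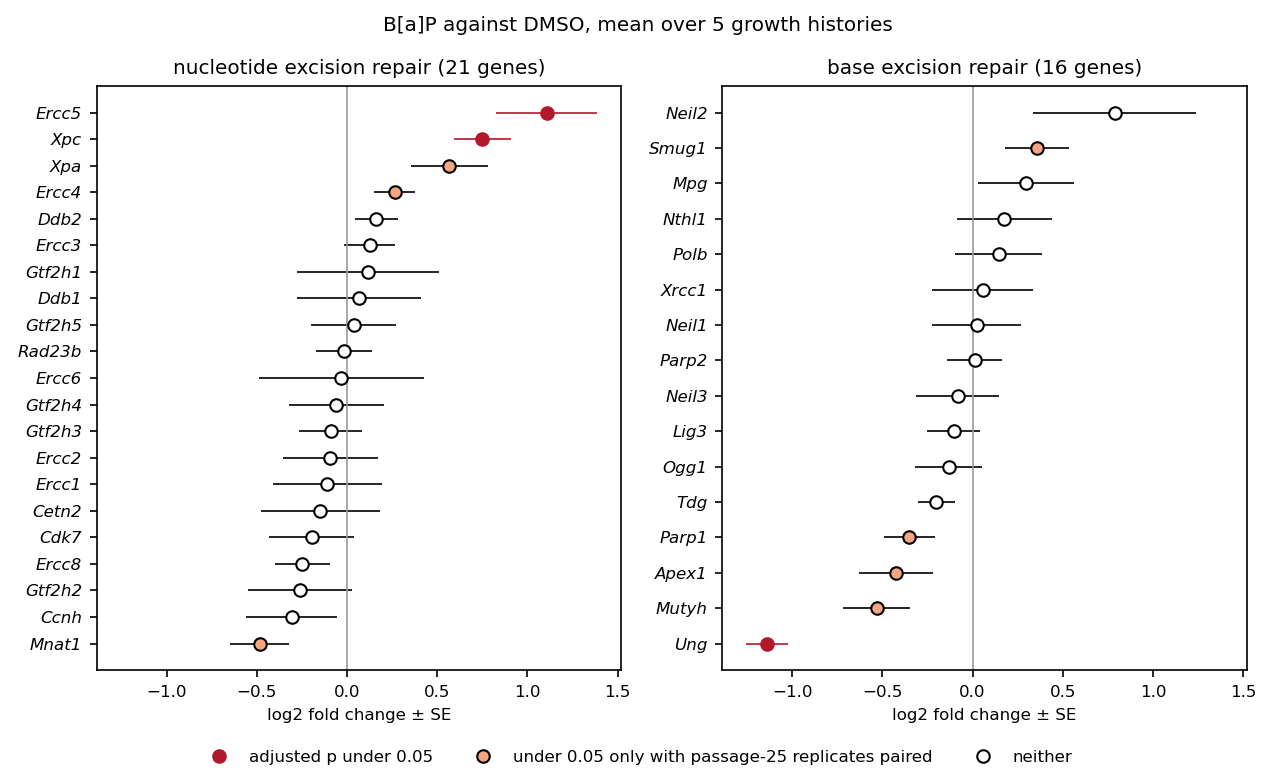
Log2 fold change of B[a]P against DMSO, averaged over 5 growth histories, with its standard error, for the 21 nucleotide excision genes (left) and the 16 base excision genes (right). Filled red points passed an adjusted p of 0.05, orange points passed only when the replicate numbers of passage 25 were paired, and most genes lie near 0 between Ung at -1.14 and Ercc5 at 1.11.

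Ung encodes uracil-DNA glycosylase, the enzyme that removes uracil from DNA. In recovered cells it had 7.73 and 6.32 CPM under B[a]P, against 14.1 and 16.3 CPM under DMSO. In Cr(VI)-grown cells of passage 25 it had 4.85 and 5.42 CPM under B[a]P and 14.8 and 15.0 CPM under DMSO, and in control-grown cells of passage 25 it had 7.26 and 6.96 CPM, against 19.3 and 19.5 CPM. At passage 20 the levels were 8.48 and 9.67 CPM under B[a]P and 12.2 and 14.9 CPM under DMSO in Cr(VI)-grown cells, and 10.6 and 10.4 CPM, against 21.1 and 21.3 CPM, in control-grown cells. Every one of the 10 B[a]P libraries (4.85 to 10.6 CPM) was below every one of the 10 DMSO libraries (12.2 to 21.3 CPM). Ung is the only member whose treatments did not overlap, as was the case for 0.955% of all genes (137 of 14343). The log2 fold change was -1.14 ± 0.116 (SE), a level 0.454 times that under DMSO, with an adjusted p of 7.4e-05 by edgeR's quasi-likelihood test, and the call held without each of the 20 libraries in turn (adjusted p 0.000121 to 0.000656).

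The Ung gene lies at chr5:114130366-114139321 in RefSeq GRCm38.p6, the source of all gene positions here, and shares 868 bases with Alkbh2, a repair dioxygenase gene, and no strand setting of the counting is given. Alkbh2 itself had a log2 fold change of 0.02 ± 0.372 (adjusted p 0.999), higher under B[a]P in 6 of 10 pairs of libraries. Genes of DNA replication and S phase, listed because the nuclear form of human UNG is known to peak around the entry into S phase, were lower by estimate in 20 of 20 cases with a median log2 fold change of -0.29. Of these 20, the cyclin gene Ccne1 (-0.69, adjusted p 0.0381) and Uhrf1, a reader of hemimethylated DNA (-0.71, adjusted p 0.0241), passed the test. Among all genes 7.59% did. The 20 genes share the same libraries, so their common sign is not 20 separate observations. The part of this list in the level of Ung was not tested.

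**Figure D2:**
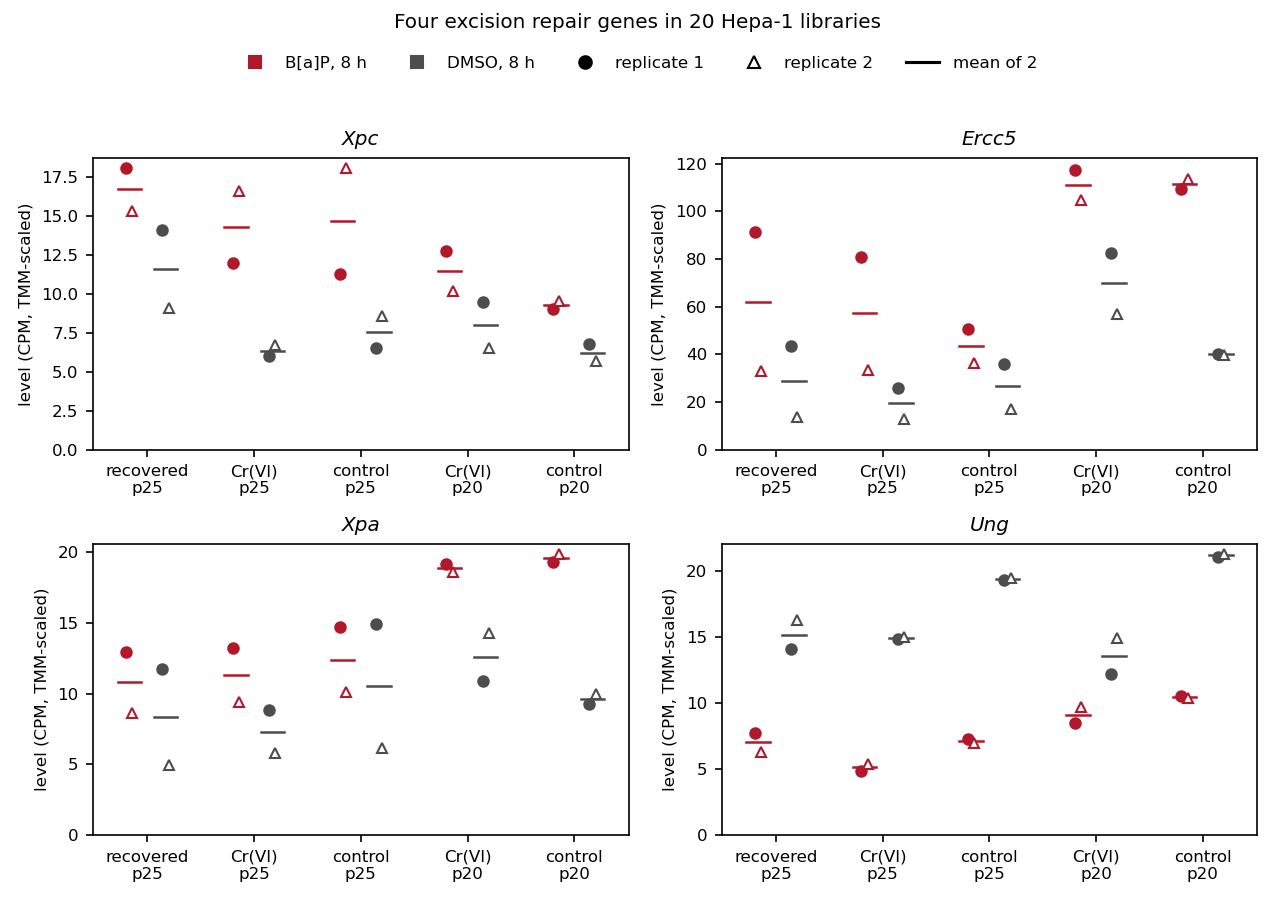
Levels of Xpc, Ercc5, Xpa and Ung in CPM with TMM-scaled library sizes, for each of the 20 libraries, by growth history and passage (p25, p20). Red marks B[a]P and grey DMSO, circles replicate 1 and triangles replicate 2, and bars are means of 2. Ung under B[a]P (4.85 to 10.6 CPM) lies below all DMSO libraries, and Ercc5 is lower in replicate 2 than in replicate 1 throughout passage 25.

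Among the genes that find a lesion, Xpc (chr6:91489305-91515888) rose under B[a]P. Xpc encodes the sensor of helix distortion that starts global repair, and its human counterpart is a known target of p53, as is human DDB2. Recovered cells had 18.1 and 15.3 CPM of Xpc under B[a]P and 14.1 and 9.11 CPM under DMSO, Cr(VI)-grown cells of passage 25 had 11.98 and 16.6 CPM against 5.998 and 6.70 CPM, and control-grown cells of passage 25 had 11.3 and 18.1 CPM against 6.51 and 8.58 CPM. At passage 20 the levels were 12.7 and 10.2 CPM against 9.51 and 6.51 CPM in Cr(VI)-grown cells, and 9.01 and 9.57 CPM against 6.78 and 5.66 CPM in control-grown cells. How many of all genes are free of overlap within single histories was not counted, so such counts have no background here or below. For Xpc both B[a]P libraries were above both DMSO libraries within each of the 5 histories. The ranges over all histories overlap (9.01 to 18.1 CPM, against 5.66 to 14.1 CPM). The log2 fold change was 0.75 ± 0.159, a 1.68-fold difference (edgeR adjusted p 0.0104), and it stayed past the threshold without each single library (adjusted p 0.00941 to 0.0373).

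Ddb2 (chr2:91211545-91237132), the damage-binding subunit of the DDB complex, had 8.38 to 19.1 CPM under B[a]P with a median of 12.5, against 6.94 to 15.1 CPM with a median of 12.4 under DMSO. Over all libraries, which span both passages, the treatments overlapped almost fully, and the log2 fold change of 0.16 ± 0.118 did not pass (adjusted p 0.582). Within pairs of equal replicate number Ddb2 was higher under B[a]P in 8 of 10. It was above DMSO without overlap in Cr(VI)-grown cells of passage 25 and below it in recovered cells, and overlapped in the other 3 histories. Ddb1, Rad23b and the centrin gene Cetn2, a further partner of XPC, had estimates between -0.15 and 0.07 and did not pass either.

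Ercc5 (chr1:44146948-44181260) encodes XPG, the nuclease that cuts on the 3′ side of the lesion. It had 91.2 and 33.0 CPM under B[a]P and 43.5 and 13.8 CPM under DMSO in recovered cells, 81.0 and 33.3 CPM against 25.9 and 12.97 CPM in Cr(VI)-grown cells of passage 25, and 50.5 and 36.5 CPM against 35.9 and 17.2 CPM in control-grown cells of passage 25. At passage 20 it had 117 and 105 CPM against 82.7 and 56.8 CPM in Cr(VI)-grown cells and 109 and 114 CPM against 40.1 and 39.8 CPM in control-grown cells. B[a]P libraries were above DMSO libraries in 4 of 5 histories, and in recovered cells the large gap between the replicates made the ranges overlap, although each B[a]P library exceeded the DMSO library of its own number. The log2 fold change was 1.11 ± 0.280, a 2.15-fold difference, with an edgeR adjusted p of 0.0281. This call lay close to the threshold and was lost in 12 of the 20 analyses that left 1 library out, with adjusted p up to 0.0686 and a log2 fold change of at least 0.92. The libraries concerned were replicates 1 and 2 of control-grown cells at passage 20 under either treatment, both Cr(VI)-grown B[a]P libraries and DMSO replicate 2 of passage 20, B[a]P replicate 1 of the control-grown, Cr(VI)-grown and recovered cells of passage 25, and DMSO replicate 2 of control-grown and Cr(VI)-grown cells of passage 25.

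The replicate numbers paired the libraries of passage 25, where all replicates 2 deviated alike, but not those of passage 20. A fit with the number as a block at passage 25 only therefore had less residual spread, and it called 10 of 37 members (27% of the list) where it called 26.9% of all genes. In that fit Ercc5 had an adjusted p of 7.19e-06, Xpc of 0.000957 and Ung of 7.75e-07. The 7 further members were Xpa, Ercc4 and Smug1, which rose, and Parp1, Apex1, Mnat1 and Mutyh, which fell. Without the block these 7 did not pass. With the 6 replicate 2 libraries of passage 25 left out, an analysis chosen after seeing the data, 7 members (18.9%) passed, where 14.4% of all genes did. They were Ung (-1.10, adjusted p 0.00227), Ercc5 (1.07, 0.00326) and Xpc (0.65, 0.0276), together with Xpa, Smug1, Mnat1 and Mutyh.

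Xpa (chr4:46175220-46196344) encodes the protein that verifies the lesion and holds the incision complex. It had 8.63 to 19.9 CPM under B[a]P with a median of 14.0, against 4.98 to 14.9 CPM with a median of 9.63 under DMSO. The B[a]P libraries were clear of the DMSO libraries in Cr(VI)-grown cells of both passages and in control-grown cells of passage 20, and overlapped them in the other 2 histories. The log2 fold change was 0.57 ± 0.214 with an adjusted p of 0.145 without the block and 0.60 with an adjusted p of 0.00091 with passage 25 paired. Ercc4, the XPF nuclease that cuts on the 5′ side, had 23.4 to 31.4 CPM under B[a]P and 18.3 to 27.6 CPM under DMSO. It was above DMSO without overlap in 4 of 5 histories, with a log2 fold change of 0.26 ± 0.115 (adjusted p 0.222 without and 0.0287 with the pairing). Its partner Ercc1 did not pass in either fit (-0.11 without the block).

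None of the 10 genes of TFIIH and its kinase passed without the block, and their estimates lay between -0.48 and 0.13. The lowest was Mnat1, the assembly factor of the CDK-activating kinase, with 12.05 to 19.2 CPM under B[a]P and 15.5 to 29.0 CPM under DMSO. It was lower under B[a]P in 10 of 10 pairs, with a log2 fold change of -0.48 ± 0.163 (adjusted p 0.0994 without and 0.00307 with the pairing). The second lowest was Ccnh, the cyclin of the same kinase, at -0.31 ± 0.252 (adjusted p 0.661). Ercc6, the CSB protein that acts where RNA polymerase stalls, was at -0.03 ± 0.459 (adjusted p 0.999), and its partner gene Ercc8 did not pass. That mean hides a spread: Ercc6 was lower under B[a]P in 7 of 10 pairs, with a median of -0.404 and a highest value of 1.5. The highest pair was replicate 1 of Cr(VI)-grown cells at passage 25, with 22.3 CPM under B[a]P and 7.59 CPM under DMSO. Within histories Ercc6 was below DMSO without overlap in 2, both of passage 20.

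Among the glycosylases other than Ung, Mutyh, which removes adenine opposite an oxidised guanine, had 2.00 to 4.82 CPM under B[a]P and 2.70 to 8.22 CPM under DMSO, with a log2 fold change of -0.53 ± 0.186 (adjusted p 0.114 without and 0.00227 with the pairing). Smug1, a second uracil glycosylase, had 20.3 to 54.8 CPM against 18.8 to 36.0 CPM, and its difference had the opposite sign to that of Ung, at 0.36 ± 0.178 (adjusted p 0.307 without and 0.0160 with the pairing). Both differences kept 1 sign in 10 of 10 pairs of equal replicate number, which at passage 20 is only a number, while the ranges overlapped. The smallest pair difference of Smug1 was 0.0043. Its top value of 54.8 CPM came from 1 library, B[a]P replicate 1 of Cr(VI)-grown cells at passage 25, and the next highest was 39.8 CPM. Within histories Smug1 was above DMSO without overlap in 3 of 5 and Mutyh below it in 2 of 5. Ogg1, which removes oxidised guanine, had 6.01 to 18.0 CPM under B[a]P and 5.70 to 20.4 CPM under DMSO and an estimate of -0.13, so no difference was detectable. Neil2 had the highest estimate of the base excision genes, 0.79 ± 0.453 (adjusted p 0.414), at levels of at most 0.457 CPM.

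In the later steps of base excision, Apex1 had 44.9 to 118.5 CPM under B[a]P and 73.4 to 168 CPM under DMSO, and Parp1 had 92.4 to 149 CPM against 117.5 to 197 CPM. The ranges overlapped for both, and Parp1 was lower under B[a]P in 10 of 10 pairs. Log2 fold changes were -0.42 ± 0.206 for Apex1 (adjusted p 0.295 without and 0.0121 with the pairing) and -0.35 ± 0.141 for Parp1 (0.177 and 0.00444). Polb, the gap-filling polymerase gene, was at 0.14 and Xrcc1, the scaffold of the ligation step, at 0.06, and neither passed. In all, 7 of 37 members had 1 sign in 10 of 10 pairs, 3 higher (Ercc5, Smug1 and Xpc) and 4 lower (Mnat1, Mutyh, Parp1 and Ung), and 12.3% of all genes did so.

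**Figure D3:**
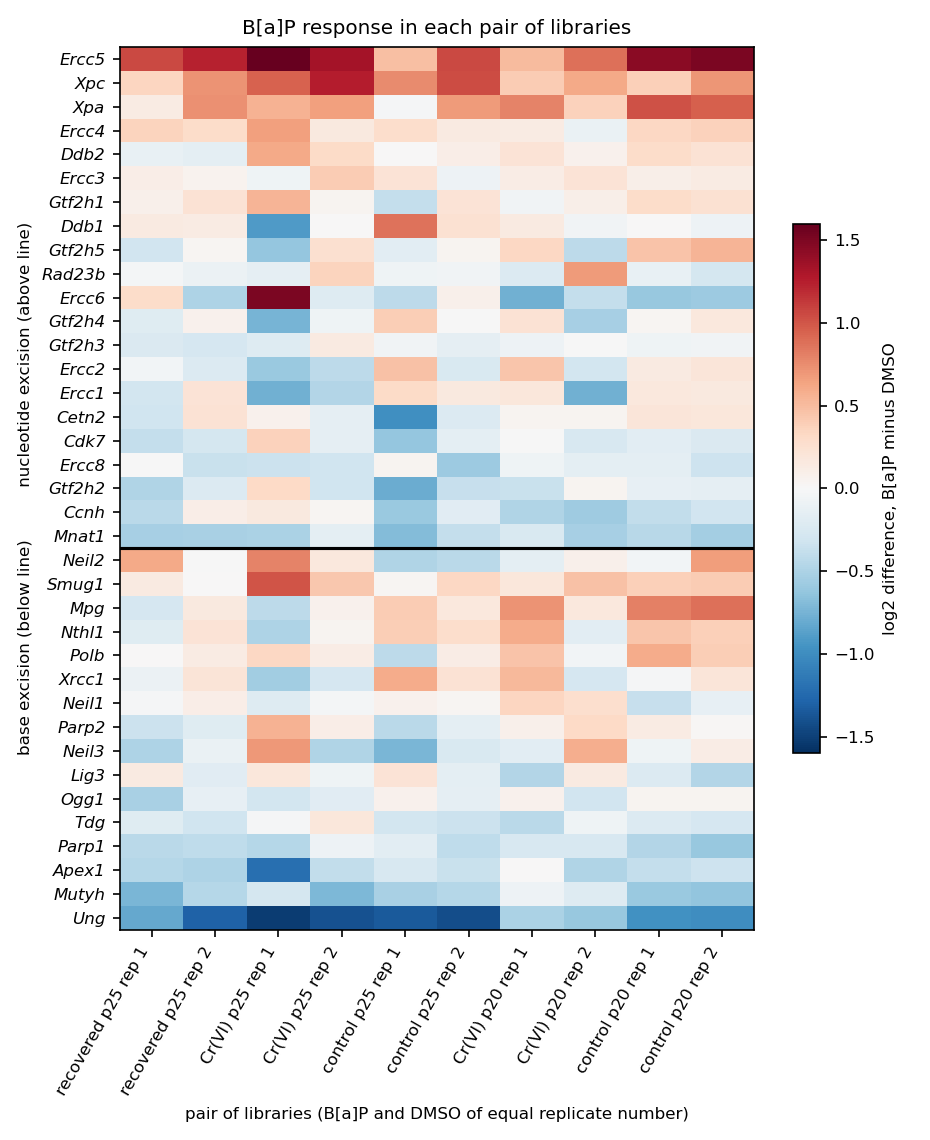
Log2 difference, B[a]P minus DMSO, of each of the 37 members (rows) in the 10 pairs of libraries with equal replicate number (columns). Red is higher and blue lower under B[a]P. Ercc5 (0.487 to 1.63) and Xpc (0.348 to 1.25) are red and Ung (-1.52 to -0.502) is blue in all 10 columns.

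The other genes of both pathways, 35 in number, include the replication proteins, clamp, polymerases and ligases that fill and seal the gap. None rose and 2 fell: Apex2, a minor relative of Apex1, at -0.85 (adjusted p 0.0238) and Pole2, a subunit of DNA polymerase epsilon, at -0.77 (adjusted p 0.00471). Their median was -0.10. Gene length and the response to B[a]P had a Pearson r of -0.227 and a Spearman rho of -0.218 across 14296 genes, and of 0.0743 and 0.0284 across the 37 members, whose median span of 23.2 kb was close to the 20.6 kb of all genes tested. Members are not independent replicates, and all points share the same libraries. Mnat1, with 161.8 kb the only member above 100 kb, had the lowest estimate of the nucleotide excision genes.

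The response to B[a]P was next read by growth history, the question named by the title of the series. In Cr(VI)-grown cells over both passages Ung had a log2 fold change of -1.06 ± 0.183 (edgeR adjusted p 0.0175), and in control-grown cells -1.23 ± 0.183 (adjusted p 0.00405). It was the only member past the threshold in either, 1 of 37 where 0.941% of all genes were called in Cr(VI)-grown cells and 2.2% in control-grown cells. With passage 25 paired, 5 members were called in Cr(VI)-grown cells (Ung, Xpa, Xpc, Ercc5 and Smug1), where 10.5% of all genes were, and 7 in control-grown cells (Ung, Xpa, Xpc, Ercc5, Mnat1, Mutyh and Parp1), where 15.3% were. A block at both passages added Mpg (0.59, adjusted p 0.0405) in control-grown cells. The call of Ung in Cr(VI)-grown cells was lost without 5 of the 8 libraries in turn (adjusted p up to 0.128): both B[a]P libraries of passage 20, both DMSO libraries of passage 25 and B[a]P replicate 1 of passage 25.

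The difference between the responses was tested directly. The effect of B[a]P in Cr(VI)-grown cells minus that in control-grown cells was 0.17 ± 0.256 for Ung, 0.07 ± 0.354 for Xpc, 0.02 ± 0.619 for Ercc5 and -0.03 ± 0.477 for Xpa, all on the log2 scale with adjusted p of 1. No member and no gene passed (0% of 14343) without the block, with passage 25 paired or by DESeq2. At an unadjusted p of 0.05, edgeR without the block called 60 genes and no member. With standard errors of 0.354 to 0.619 for Xpc, Xpa and Ercc5, a difference as large as their responses may not be detectable with these libraries.

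In recovered cells, with 2 libraries against 2, no member passed without the block, and 0.0558% of all genes did. At an unadjusted p of 0.05 edgeR called 526 genes and 1 member, Ung, which DESeq2 also called (adjusted p 0.000115). Ung was at -1.11 ± 0.259 (adjusted p 0.267) and Ercc5 at 1.11 ± 0.627 (adjusted p 1). The Ercc5 value depends on single libraries: it was 2.17 without DMSO replicate 1, 0.20 without B[a]P replicate 1 and 0.51 without DMSO replicate 2 of the recovered cells. With passage 25 paired, Ung (adjusted p 0.0134) and Ercc5 (adjusted p 0.0403) passed, where 1.35% of all genes did. In the same fit single histories gave 3 members in Cr(VI)-grown cells of passage 25 (Ercc5, Ung and Xpc, 4.36% of all genes called), 1 in control-grown cells of passage 25 (Ung, 2.38%), 0 in Cr(VI)-grown cells of passage 20 (2.72%, with 4 of 37 members against 15.4% of all genes at an unadjusted p of 0.05) and 3 in control-grown cells of passage 20 (Ercc5, Ung and Xpa, 11.8%). The estimate for Ung was -1.54 at passage 25 and -0.58 at passage 20 in Cr(VI)-grown cells, and -1.45 and -1.01 in control-grown cells. The difference between the passages, averaged over both histories and tested after these values were seen, was -0.70 ± 0.256 (adjusted p 1 without the block and 0.257 with passage 25 paired), so it did not pass.

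Under DMSO, Cr(VI)-grown cells were set against control-grown cells, 4 libraries against 4 over both passages. No member passed, and no gene did (0%). At an unadjusted p of 0.05 edgeR called 3 members, all base excision genes with negative estimates, and 685 genes (4.78%). These were Ung at -0.51 ± 0.181, Tdg, which removes thymine and uracil mispaired with guanine, at -0.45 ± 0.161, and Lig3, which seals the final nick, at -0.60 ± 0.232 (adjusted p 0.895 each). DESeq2 called Tdg (adjusted p 0.0102) among 13 genes. The median was 0.00 over the nucleotide excision genes, -0.22 over the base excision genes and -0.03 over all genes.

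**Figure D4:**
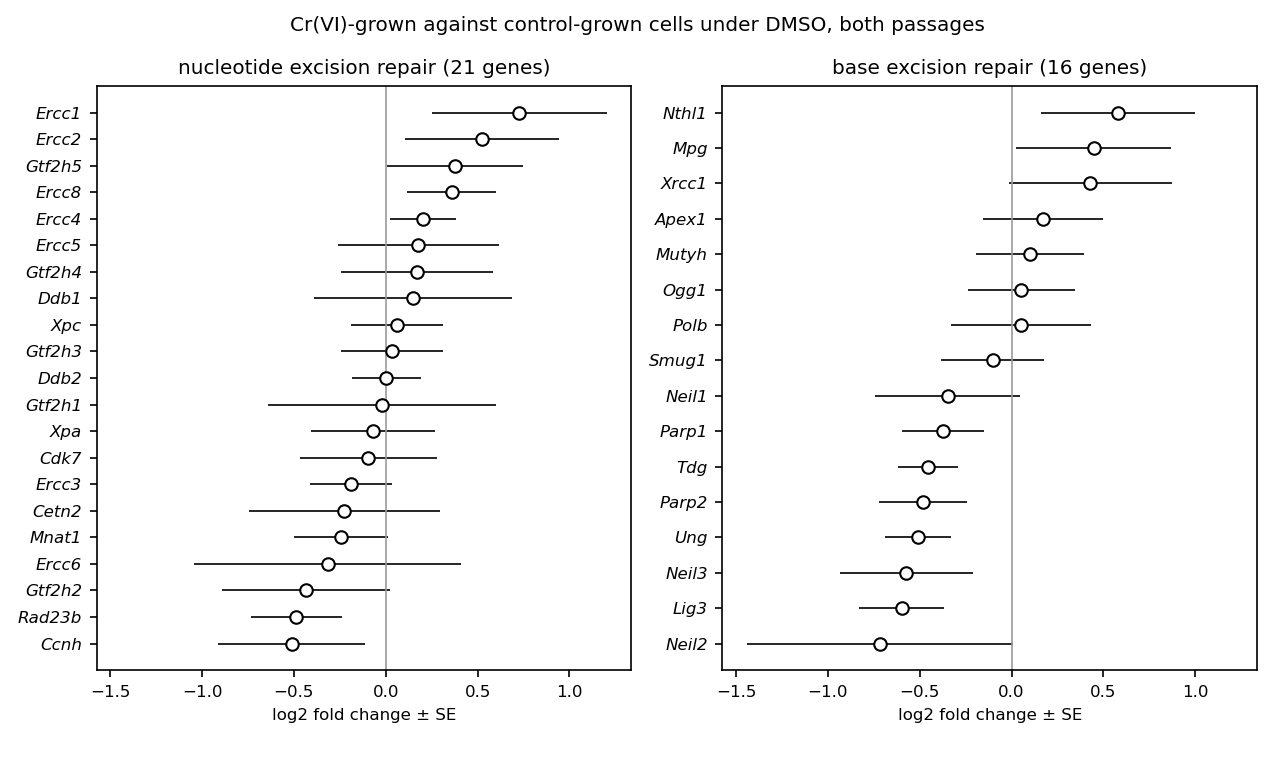
Log2 fold change of Cr(VI)-grown against control-grown cells under DMSO, averaged over passages 25 and 20, with its standard error, for the 21 nucleotide excision genes (left) and the 16 base excision genes (right). Open points did not pass an adjusted p of 0.05, which holds for all 37 members, and the estimates lie between -0.72 (Neil2) and 0.73 (Ercc1).

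Tdg (chr10:82629814-82650799) had 82.2 and 75.0 CPM in Cr(VI)-grown cells and 113 and 114 CPM in control-grown cells at passage 25, and 96.7 and 80.35 CPM against 116 and 114 CPM at passage 20. The Cr(VI)-grown libraries were below the control-grown ones at both passages. Lig3 (chr11:82781109-82804274) had 69.25 and 77.3 CPM against 71.8 and 99.9 CPM at passage 25, which overlap, and 55.5 and 27 CPM against 82.4 and 78.9 CPM at passage 20. Ung under DMSO, given above by library, was lower in the Cr(VI)-grown libraries at both passages. With the replicate number as a block at both passages Lig3 and Tdg fell (adjusted p 0.0472 each), where 3.7% of all genes were called, but with passage 25 alone paired no member was, and 0.53% of all genes were.

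The highest estimates under DMSO were those of Ercc1 (0.73 ± 0.477) and Ercc2, a helicase of TFIIH (0.53 ± 0.419), for nucleotide excision, and of Nthl1, a glycosylase for oxidised pyrimidines (0.58 ± 0.418), and Mpg, the alkyladenine glycosylase (0.45 ± 0.423), for base excision. The lowest beside those named were Ccnh (-0.51 ± 0.399) and Rad23b (-0.49 ± 0.248) for nucleotide excision and Neil2 (-0.72 ± 0.724) for base excision, and none of these passed (adjusted p 0.895 each). Ercc1 had 29.9 and 56.3 CPM in Cr(VI)-grown cells against 16.5 and 34.7 CPM in control-grown cells at passage 25, and 13.8 and 32.2 CPM against 13.2 and 15.0 CPM at passage 20. Within pairs of equal number Ercc1 was higher in Cr(VI)-grown cells in 4 of 4 (log2 difference 0.0588 to 1.08), while the ranges overlapped at each passage. Replicate 2 of the Cr(VI)-grown cells under DMSO at passage 20 also had the lowest Lig3 of all 20.

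Under B[a]P, no member and no gene (0%) differed between Cr(VI)-grown and control-grown cells. At an unadjusted p of 0.05 edgeR called 523 genes and 1 member, Lig3 at -0.53 ± 0.232, and DESeq2 called 1 gene and no member. This comparison and the response to B[a]P share libraries.

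Recovered cells under DMSO were compared with Cr(VI)-grown and with control-grown cells of passage 25, 2 libraries against 2, and no member or gene passed in either (0%), by edgeR with or without the block or by DESeq2. At an unadjusted p of 0.05 edgeR without the block called 195 genes against Cr(VI)-grown cells, with Xpc and Tdg among the members, and 146 against control-grown cells, with Neil2 alone. Xpc had 14.1 and 9.11 CPM in recovered cells, against 5.998 and 6.70 CPM in Cr(VI)-grown cells and 6.51 and 8.58 CPM in control-grown cells. The recovered libraries were the highest of the 6, with log2 fold changes of 0.87 ± 0.357 over Cr(VI)-grown and 0.62 ± 0.356 over control-grown cells (adjusted p 1 each). Tdg had 118.7 and 105 CPM in recovered cells, against 82.2 and 75.0 CPM in Cr(VI)-grown and 113 and 114 CPM in control-grown cells, so the recovered level overlapped that of the controls. Both comparisons use the same recovered libraries.

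Passage 25 was compared with passage 20 over control-grown and Cr(VI)-grown cells and both treatments, 8 libraries against 8, with passage and library set confounded as stated. The test called 10 of 37 members (27%), where 19.4% of all genes were called. The 7 that rose were Ddb1 (1.27 ± 0.388) and Ddb2 (0.70 ± 0.133) of the DDB complex, the glycosylase genes Neil1 (1.16 ± 0.281), Nthl1 (1.04 ± 0.297), Ogg1 (0.93 ± 0.208) and Mutyh (0.66 ± 0.208), and Lig3 (0.62 ± 0.164). The 3 that fell were the TFIIH gene Gtf2h1 (-1.35 ± 0.447), Ercc5 (-1.19 ± 0.314) and Polb (-1.05 ± 0.271). With passage 25 paired 23 members were called, where 61.4% of all genes were, so that share is near the background. Besides the 10, it called 5 members as higher, namely Ercc1 (0.77), the TFIIH genes Gtf2h4 (0.71), Ercc2 (0.56) and Gtf2h3 (0.28), and Mpg (0.67). It called 8 as lower, namely Cetn2 (-0.85), the TFIIH genes Gtf2h5 (-0.69), Gtf2h2 (-0.49) and Ccnh (-0.39), Xpa (-0.56), Ercc6 (-0.53), Ung (-0.34) and Parp2 (-0.31). Of these 13, with the replicate 2 libraries of passage 25 left out, only Gtf2h5 kept its direction and call (-1.03, adjusted p 0.0213), Ercc6 passed in the opposite direction (0.45, adjusted p 0.0467), and the other 11 did not pass.

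Cell type markers differed between the passages as well. At passage 25 against passage 20, without the block, Alb (1.97), Pdgfrb (1.18) and Dcn (0.71) rose, and Col3a1 (-4.06), Adgre1 (-2.03), Cd68 (-1.64), Pecam1 (-1.501) and Lyz2 (-1.43) fell. The hepatoma markers summed to 2190 to 8470 CPM at passage 25 and 2110 to 2790 CPM at passage 20, the fibroblast markers to 725 to 1480 CPM and 398 to 991 CPM, and the macrophage markers to 31.2 to 62.6 CPM and 35.9 to 63.5 CPM. The endothelial markers summed to 0.122 to 0.396 CPM at passage 25 and 0.232 to 1.37 CPM at passage 20, close to 0 in both. The part of these markers in the passage differences of the repair genes was not tested.

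The call depended on the library set. The 4 replicate 1 libraries of passage 25 differed from passage 20 by more than 2-fold in 1 of 37 members (2.7%, against 5.44% of all genes), and the 4 replicate 2 libraries in 14 of 37 (37.8%, against 33.8%). The 2 sets differed from passage 20 in the same direction for 23 of 37 members (62.2%, against 60% of all genes). Ddb2 moved alike in both, by 0.69 in replicate 1 and 0.67 in replicate 2. It had 12.4 to 19.1 CPM in all replicate 1 and 12.5 to 16.04 CPM in all replicate 2 libraries of passage 25, recovered cells included, against 6.94 to 10.5 CPM at passage 20, with no overlap. Lig3 (0.56 and 0.72) and Ogg1 (0.61 and 1.13) also had estimates of one sign. So did Ddb1 (0.43 and 1.79), Gtf2h1 (-0.82 and -2.18) and Ercc5 (-0.78 and -1.72), although the sizes differed between the sets. Ercc6 was at 0.40 in replicate 1 and -1.40 in replicate 2, so the sets had opposite signs. With the replicate 2 libraries of passage 25 left out, Lig3 (0.58, adjusted p 0.0853) and Nthl1 (0.58, adjusted p 0.1) no longer passed, while the other 8 of the 10 members did. That analysis called 12 members (32.4%) and 25.8% of all genes.

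**Figure D5:**
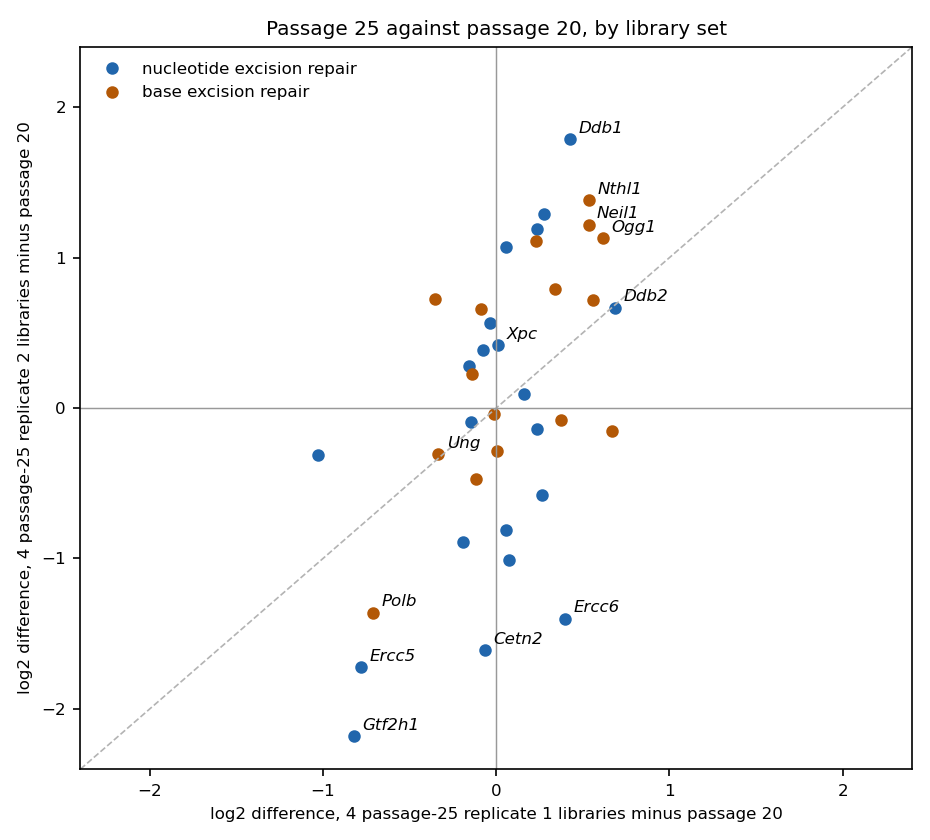
Log2 difference between passage 25 and passage 20 for each of the 37 members, from the 4 replicate 1 libraries of passage 25 (x axis) and from the 4 replicate 2 libraries (y axis), each against the 8 libraries of passage 20. The dashed line marks equal differences, and Ddb2 lies on it (0.69 and 0.67), whereas Ddb1 (0.43 and 1.79) and Gtf2h1 (-0.82 and -2.18) lie far from it.

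Leaving out 1 library moved the passage count between 3 and 13 members (8.11% to 35.1%), while the share of all genes called moved between 10.8% and 30.9%. It was 6 or fewer without any of the libraries of passage 20 other than Cr(VI)-grown DMSO replicate 2, and without replicate 2 of the control-grown cells under B[a]P or DMSO or of the Cr(VI)-grown cells under DMSO at passage 25. Ddb2, Neil1 and Ogg1 were called in all 16 of these analyses, Ercc5 and Polb in 13, Lig3 in 9, Mutyh and Nthl1 in 5, Ddb1 in 4 and Gtf2h1 in 2.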

How the data were processed

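RNA was measured by sequencing in 20 Hepa-1 libraries, and the deposited table holds raw counts per Entrez gene ID. Per the submitters' processing notes the tools were TopHat, bcl2fastq, DESeq and CASAVA 1.8, with the build mm10. Which program counted the reads, with which annotation and strand rule, is not given in the sources used here. Symbols for 23275 of 23373 IDs, gene positions and promoters came from RefSeq GRCm38.p6, the assembly also called mm10. Passage follows its own label where later titles carry 27.

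Differences were tested in R 4.3.3 with edgeR 4.0.16: filterByExpr, TMM scaling, 1 mean per group over all 20 libraries (10 residual degrees of freedom) and two-sided quasi-likelihood tests, adjusted by Benjamini-Hochberg over 14343 genes with a threshold of 0.05. CPM use TMM-scaled library sizes, and pair differences add 0.5 CPM before log2. The labels do not say that duplicates were separate cultures, so each p-value reflects the spread between libraries, which may be technical. Replicate 2 minus replicate 1 differences correlated at 0.812 to 0.916 between groups of passage 25 and at -0.00192 to 0.59 at passage 20, so the numbers were taken to pair only passage 25. Motif words were counted on both strands. Fits were tested on simulated data.

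Alternatives were replicate blocks, DESeq2 1.42.0, RLE scaling, no count filter, the passage 25 block without 1 doubted library, and leaving out libraries. The use of the replicate 1 set of passage 25 alone and the tests of differences between passages and between recovered and control-grown cells were added after the data were seen. Members, lists and tests were chosen with earlier results of these data known. Members are named with values if past the threshold in any comparison in the fit without or with the replicate block, if central to a step (Xpc, Ddb2, Xpa, Ercc1, Ercc6, Ogg1, Ung, Apex1, Polb, Xrcc1, Parp1), or if among the 2 highest or lowest of each pathway for B[a]P or for Cr(VI) under DMSO.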

Additional observations from a re-analysis of the deposited data

How the results depend on the processing

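Counts of members past the threshold moved most with the pairing. With the replicate block at both passages 10 members passed for B[a]P over all histories (3 without it), 5 in Cr(VI)-grown cells (1), 8 in control-grown cells (1), 2 in recovered cells (0), 2 for Cr(VI) under DMSO (0) and 24 for passage (10). In the same order the share of all genes called was 28.3%, 11.3%, 16.7%, 1.5%, 3.7% and 63.3%. Without the block it was 7.59%, 0.941%, 2.2%, 0.0558%, 0% and 19.4%. With the replicate block at passage 25 only the counts of members were 10, 5, 7, 2, 0 and 23. The shares of all genes were then 26.9%, 10.5%, 15.3%, 1.35%, 0.53% and 61.4%, so the counts of members rose along with the background. DESeq2 gave 5 for B[a]P over all histories (12.5% of all genes), 2 in Cr(VI)-grown (3.3%), 2 in control-grown (5.5%) and 1 in recovered cells (0.794%). It gave 1 for Cr(VI) under DMSO (0.0906%) and 13 for passage (29.2%). Of its 5 for B[a]P over all histories, Mnat1 and Tdg, both lower, were not called by edgeR without the block. Without the count filter 0 passed in Cr(VI)-grown cells (0.347% of all genes). With passage 25 paired and the Cr(VI)-grown DMSO replicate 2 of passage 20, which departs from its duplicate, not used, 14 passed for B[a]P over all histories (37.8%, against 33.5% of all genes) and 4 in Cr(VI)-grown cells (10.8%, against 15.4%). With replicate 1 alone at passage 25, an alternative chosen after seeing the data, these were 7 and 2 (18.9% and 5.41%, against 14.4% and 5.23% of all genes), with 2 in control-grown cells (7.12% of all genes). Among the 24 members called for passage with the replicate block at both passages, 4 passage differences changed sign in that analysis. They went to 0.12 for Gtf2h2, 0.10 for Ccnh, 0.45 for Ercc6 and -0.066 for Apex1. The signs of the remaining members were not followed there. The cause of these shifts was not tested.

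Leaving out 1 library gave 2 to 4 members for B[a]P over all histories, 0 to 1 in Cr(VI)-grown cells, 1 in control-grown cells, 3 to 13 for passage and 0 elsewhere. The differences between growth histories in the response to B[a]P, Cr(VI) growth under B[a]P and both comparisons of recovered cells under DMSO had 0 members in every analysis run. Ung and Xpc kept direction and call for B[a]P over all histories in every analysis run. Of the single-gene values under left-out libraries, 628 kept their direction and their status, whether called or not called, 78 lost the call and 6 gained it. Many of the 628 had no call with all libraries, so they do not measure how often a call held.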

Other observations

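Besides Ung, the annotated spans of Ddb2, Ercc1, Ercc2, Ogg1, Mpg, Lig3, Tdg, Cdk7, Mnat1 and Polb overlap another gene of the table, among them Acp2 with 2554 bases of Ddb2, Trmt5 with 5474 bases of Mnat1 and Cd3eap with 518 bases of Ercc1. Without a known strand setting, reads of such pairs cannot be told apart.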
